A study of Homo sapiens with 24 samples.

Results

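Proteasome subunit genes were taken as the protein-coding genes whose symbols are PSMA, PSMB, PSMC or PSMD followed by a number, with the activator genes PSME1 to PSME4. The Ensembl identifiers of the deposited tables were matched to symbols, and 42 of the 43 symbols that the rule names had a row, out of 34496 genes listed in the series. PSMA8 is not analysed here. PSMB11, the thymus-specific catalytic subunit, had a row in 2 tables only, with values of 0 to 3.04, and was not tested. The remaining 41 genes passed the filter on low values (a mean of at least 10 in the table) in each of the 6 comparisons.

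The series holds 24 polyA RNA-seq libraries of the human glioblastoma lines U87 MG and LN229 and of their temozolomide-resistant forms, U87-R and LN229-R. Each line received either the solvent DMSO or 50 µM STM2457, an inhibitor of the RNA methyltransferase METTL3, for 96 h, with 3 libraries in each of the 8 groups. The medium of both resistant lines held 50 µM temozolomide in the DMSO and the STM2457 groups alike, and that of the parental lines held none, so resistance and the presence of temozolomide cannot be told apart. The U87 lines were grown in EMEM and sequenced from TruSeq Stranded mRNA libraries, and the LN229 lines were grown in DMEM with less serum and sequenced from Watchmaker libraries, so cell background, medium and library kit cannot be told apart either. No label says whether the replicates are separate cultures, so the tests reflect the spread among these libraries alone, and that spread may be technical.

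The proteasome degrades proteins that carry ubiquitin chains. Its core particle is a stack of alpha and beta rings, with the catalytic sites on the beta subunits PSMB5, PSMB6 and PSMB7. Regulatory particles made of a base, which unfolds the substrate with a ring of ATPases, and a lid, which removes the ubiquitin, sit on the ends of the core. Interferon replaces the catalytic subunits by the inducible PSMB8, PSMB9 and PSMB10, which with the activator formed by PSME1 and PSME2 shape the peptides shown on MHC class I. When proteasome activity drops, the transcription factor NFE2L1 raises the subunit genes together through antioxidant response elements in their promoters.

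The promoters show which members hold letters of these 2 control systems. The RefSeq promoters of GRCh38.p14 (250 bases before to 50 bases after a start) held 44 promoters of 37 of the 42 members. The interferon-stimulated element was searched as GAAA, any 2 bases and GAAA again, on both strands. It occurred in 6 member promoters (13.6%), against 3.57% of all 35116 promoters of the same length, and the 6 genes were PSMA4, PSMB4, PSMB8, PSMB10, PSME1 and PSME2. After STM2457, PSMB10 fell in both U87 lines, PSMB8 rose in LN229-R, PSME2 fell in LN229 and PSME1 passed in no line. PSMA4 and PSMB4, whose windows are not shown, fell in both LN229 lines, and PSMA4 also fell in U87-R. PSMB9 had no match and fell in both U87 lines. What the element has to do with these changes was not tested. The 4 windows below belong to the interferon-inducible genes among the 6. Each is 30 bases long, reads 5′ to 3′ on the strand of its gene and has the match in capitals. They lie at chr16:67936852-67936881 (minus strand, PSMB10), chr6:32844032-32844061 (minus strand, PSMB8), chr14:24136189-24136218 (plus strand, PSME1) and chr14:24146619-24146648 (minus strand, PSME2).
PSMB10: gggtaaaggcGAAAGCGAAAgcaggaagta
PSMB8: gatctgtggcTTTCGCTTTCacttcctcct
PSME1: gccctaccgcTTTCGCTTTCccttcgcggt
PSME2: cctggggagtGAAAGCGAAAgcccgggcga
In PSMB8 and PSME1 the match is on the opposite strand, so the capitals read as its complement. These are matches of letters, not measured binding sites.

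The antioxidant response element was searched as TGACNNNGC on both strands and occurred in 13 member promoters (29.5%), against 13.3% of all promoters. The 13 genes were PSMA4, PSMB3, PSMB9, PSMC4, PSMC5, PSMD1, PSMD3, PSMD5, PSMD9, PSMD12, PSME1, PSME2 and PSME4. After STM2457, PSMA4, PSMB3, PSMC4, PSMC5, PSMD3 and PSME4 fell in both LN229 lines. PSME2 fell in LN229 and did not pass in LN229-R, and the other 6 did not pass in either LN229 line. Of all 41 members 15 (36.6%) fell in both LN229 lines, against 15% of all genes. PSMB9 fell in both U87 lines, and PSMA4 fell in U87-R. The part of the element in these changes was not tested. The 4 windows below come from constitutive genes of the beta ring, the base and the lid, and from 1 alpha ring gene, that fell in both LN229 lines after STM2457, as given further on. They lie at chr15:78540650-78540679 (PSMA4), chr17:38752627-38752656 (PSMB3), chr17:63827654-63827683 (PSMC5) and chr17:39980760-39980789 (PSMD3), on the plus strand.
PSMA4: gtgggcacgaTGACTCTGCaccgcctcctc
PSMB3: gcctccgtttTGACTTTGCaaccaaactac
PSMC5: gaccggatctGCTGTGTCAgcgccgccctc
PSMD3: tcccctttgtTGACTCGGCcatcggcctgc
The match of PSMC5 is on the opposite strand. The NF-Y box CCAAT was found on either strand in 19 member promoters (43.2%), against 34.6% of all promoters. In the member promoters no match overlapped one of another motif.

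The values are normalized counts, and each table of 6 libraries was normalized on its own, so each of the 6 comparisons was made within its table. Library sums were 21232924 to 25349361 in the U87 tables and 24101385 to 28716587 in the LN229 tables. Read depth is unknown, because whole reads could not be recovered from the values. Of the glioma markers, VIM, NES and CD44 were high in both families, at 746 or more in every library. S100B was at 2819 to 29536 and SOX2 at 661 to 1390 in the LN229 lines, but at most at 9.17 and 2.34 in the U87 lines, and GFAP did not exceed 51.2 in the U87 lines and 227 in the LN229 lines. The leukocyte marker PTPRC did not exceed 5.36, while the lysosomal and macrophage marker CD68 was at 9446 to 20217 in the U87 lines and at 53.2 to 721 in the LN229 lines.

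The names of the LN229 lines conflict between tables. All 6 DMSO columns of the LN229 resistance table matched best, among the DMSO columns of the drug tables, the like-numbered library that carries the other line's name. None of the 6 matched its own name, whereas all 6 of the U87 columns did. Among the STM2457 libraries of the LN229 drug tables, the difference between lines pointed the same way as among the DMSO libraries for 86.2% of the 654 genes that differed by more than 2-fold in DMSO. The same share was 84.6% of 827 genes in the U87 drug tables. These line differences were taken between separately normalized tables. An offset between tables enters the DMSO and the STM2457 difference alike and can add to the agreement. Which table has the LN229 names right was not settled, so the direction of the LN229 resistance comparison is given as labelled. Each LN229 drug comparison is given under the line name of its table, and it may belong to the other LN229 line. The agreement between DMSO and STM2457 libraries bears only on names within the drug tables.

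U87-R differed from U87 MG in the genes of the interferon-inducible activator. PSME1 and PSME2, its alpha and beta subunits, were higher in U87-R, and no other member passed the test. Of the 41 members 2 rose and 0 fell, where 4.27% of all genes tested passed and 3.13% rose (limma, Benjamini-Hochberg adjusted p under 0.05 over 16306 genes). At an unadjusted p under 0.05, 11 of the 41 members passed, beside 2771 of the 16306 genes tested.

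PSME1 (chr14:24136158-24138967, plus strand) had 1479, 1288 and 1245 normalized counts in U87 MG and 2293, 2264 and 2910 in U87-R. The groups did not overlap, and U87-R replicate 3 was the highest. The log2 change was 0.89 (SE 0.13, limma adjusted p = 0.00646). PSME2, its neighbour on the same chromosome (chr14:24143362-24147570, minus strand), had 854, 890 and 909 normalized counts in U87 MG and 1333, 1345 and 1664 in U87-R. Again every U87-R library lay above every U87 MG library, with replicate 3 on top. Its log2 change was 0.70 (SE 0.12, limma adjusted p = 0.0127). Without U87 MG replicate 2 the adjusted p of PSME2 was 0.0589 by limma and 1 member was called instead of 2, while PSME1 passed without any single library. In bulk libraries, fewer cells of a type and less RNA per cell cannot be told apart, here and in all comparisons that follow. The other activator genes did not pass: PSME3, a nuclear activator, had a log2 change of -0.18, and PSME4, a large single-chain activator, one of -0.12.

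The inducible catalytic genes did not pass in U87-R. PSMB9 had 512, 420 and 534 normalized counts in U87 MG and 584, 601 and 717 in U87-R, with no overlap between the groups and a log2 change of 0.38 (limma adjusted p = 0.22). PSMB8 and PSMB10 had log2 changes of 0.18 and 0.02. PSMB5, the constitutive subunit with the chymotrypsin-like site, had 1617, 1652 and 1920 in U87 MG and 2078, 2227 and 2834 in U87-R, a log2 change of 0.45 (limma adjusted p = 0.116). The groups of PSMB5 did not overlap, yet the spread within U87-R was wide. PSMB6 and PSMB7, with the caspase-like and the trypsin-like site, had log2 changes of -0.09 and -0.22.

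The structural groups leaned slightly below 0 in U87-R, with no call. The median log2 change of the 41 members was -0.12, beside -0.01 for all genes tested, and 28 were negative. With library totals made equal, PSMB10, PSMC1, PSMD4 and PSMD5 turned negative too. All 8 lid genes were negative, from -0.28 to -0.12, and 4 of the 6 ATPase genes were too. The exception among the ATPases with the widest change was PSMC6, at 0.36. The groups of libraries did not overlap for 19 of 41 members, against 23.3% of all genes.

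The libraries labelled LN229-R differed from those labelled LN229 in 2 catalytic genes, PSMB7 and PSMB10, which encode the constitutive and the inducible form of the same trypsin-like site. Of 41 members 2 rose and 0 fell, where 9.25% of the 17136 genes tested passed and 5.6% rose. At an unadjusted p under 0.05, 11 members passed, beside 4204 of the 17136 genes tested. With the names of the 2 lines exchanged, as the drug tables have them, both changes have the opposite sign, -0.54 for PSMB10 and -0.33 for PSMB7.

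PSMB10 (chr16:67934502-67937087, minus strand) had 222, 238 and 239 normalized counts in the libraries labelled LN229 and 318, 357 and 340 in those labelled LN229-R. The groups were tight and far apart. The log2 change was 0.54 (SE 0.12, limma adjusted p = 0.0276). PSMB7 had 2597, 2568 and 2659 against 3098, 3252 and 3469, a log2 change of 0.33 (SE 0.08, limma adjusted p = 0.0373), again with no overlap.

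The other inducible genes lay on the same side without passing. PSMB8 had 995, 1191 and 1001 in the libraries labelled LN229 and 1391, 1389 and 1279 in those labelled LN229-R (log2 change 0.35, limma adjusted p = 0.0674). PSMB9 overlapped between the groups, because 1 library labelled LN229, replicate 2, was at 734 where the others were at 540 and 535 (log2 change 0.39, limma adjusted p = 0.143). PSMB5 and PSMB6 had log2 changes of -0.10 and -0.21, and PSME1, PSME2, PSME3 and PSME4 of 0.21, 0.14, 0.15 and -0.10.

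The count in LN229 turned on single libraries. Like-numbered libraries deviated together here, and with the replicate number as a block 6 members rose, among them PSMB8 (limma adjusted p = 0.0337), PSMB9 (limma adjusted p = 0.0408), PSMA7 and PSMD2, where 8.32% of all genes rose. Without replicate 2 of the libraries labelled LN229, in which ribosomal protein genes took 4.25% of normalized counts against 2.58% and 2.73% in the other 2, 7 members were called. Without either of the other libraries labelled LN229, or without any 1 of those labelled LN229-R, 0 were called by limma. How many of all genes these fits called is not given here. The part of this library in the result was not tested. The median log2 change of the 41 members was 0.05, beside -0.01 for all genes, and the groups did not overlap for 13 members, against 30.9% of all genes.

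STM2457 lowered 2 inducible catalytic genes in U87 MG. PSMB9 and PSMB10 fell, no member rose, and 13.6% of the 16407 genes tested passed and 5.72% fell. At an unadjusted p under 0.05, 8 of the 41 members passed, beside 4856 of the 16407 genes tested.

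PSMB10 had 1208, 1035 and 1142 normalized counts in DMSO and 636, 715 and 704 after STM2457. The highest treated library was well below the lowest control. Its log2 change was -0.72 (SE 0.11, limma adjusted p = 0.00498), and the call held without any single library. PSMB9 had 562, 462 and 590 in DMSO and 313, 346 and 399 after STM2457, also with no overlap (log2 change -0.61, SE 0.15, limma adjusted p = 0.0314). Its call was lost in 4 of the 6 fits that left out 1 library. PSMB8, the third inducible gene, had 1022, 1102 and 1073 in DMSO and 903, 919 and 969 after STM2457, and did not pass (log2 change -0.20, limma adjusted p = 0.222).

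PSMB5 had 1753, 1795 and 2095 normalized counts in U87 MG in DMSO and 2185, 2655 and 2977 after STM2457. The groups did not overlap, and the log2 change of 0.46 narrowly missed the threshold (SE 0.13, limma adjusted p = 0.0508). It passed with library totals made equal (limma adjusted p = 0.0206). PSMA5, an alpha ring gene, lay on the same side at 0.38 (limma adjusted p = 0.0635). PSMB6 and PSMB7 had log2 changes of -0.21 and -0.12, and PSME1, PSME2, PSME3 and PSME4 of -0.23, -0.21, -0.17 and -0.16. The median of the 41 members was -0.16, beside -0.01 for all genes, with 33 negative, among them all 4 activator genes and all 6 ATPase genes, of which PSMC6 turned positive, like PSMD5 and PSMD8, with library totals made equal. The groups did not overlap for 11 members, against 34.8% of all genes.

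U87-R gave the same inducible genes and 3 constitutive core genes after STM2457. PSMB9, PSMB10, PSMA3, PSMA4 and PSMB2 fell and no member rose, where 14.7% of the 16185 genes tested passed and 6.2% fell. At an unadjusted p under 0.05, 16 of the 41 members passed, beside 4890 of the 16185 genes tested.

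PSMB10 had 922, 978 and 1141 normalized counts in U87-R in DMSO and 619, 636 and 730 after STM2457 (log2 change -0.61, SE 0.13, limma adjusted p = 0.0154). PSMB9 had 582, 596 and 717 and then 396, 396 and 467 (log2 change -0.59, SE 0.14, limma adjusted p = 0.0253). Neither gene overlapped between the groups, and replicate 3 was the highest of both groups for both genes. PSMB8 had 1016, 1130 and 1116 in DMSO and 836, 817 and 920 after STM2457, and did not pass (log2 change -0.34, limma adjusted p = 0.0706).

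Of the constitutive core genes, PSMB2 had 2185, 2121 and 2259 normalized counts in DMSO and 1425, 1459 and 1789 after STM2457 (log2 change -0.50, SE 0.11, limma adjusted p = 0.0221). PSMA3 had 1415, 1278 and 1226 and then 940, 941 and 904 (log2 change -0.49, SE 0.11, limma adjusted p = 0.0172). PSMA4 had 1369, 1394 and 1372 and then 1040, 1043 and 1134 (log2 change -0.36, SE 0.10, limma adjusted p = 0.0411). The treated libraries of all 3 genes lay below every control. PSMB5 again lay the other way, with 2056, 2192 and 2813 in DMSO and 2561, 2971 and 3900 after STM2457, but the groups overlapped (log2 change 0.41, limma adjusted p = 0.149). PSMB6 and PSMB7 had log2 changes of -0.21 and -0.17, and PSME1, PSME2, PSME3 and PSME4 of -0.29, -0.04, 0.03 and -0.19.

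Library pairs mattered in U87-R. The like-numbered libraries deviated together, and with the replicate number as a block 17 members fell and 2 rose, where 13.9% of all genes fell and 15.7% rose. PSMB5 then rose (limma adjusted p = 0.00344), and PSMB8 (limma adjusted p = 0.0212) and PSME1 (limma adjusted p = 0.0184) fell. Leaving out 1 library gave 0 to 7 calls, with 0 without DMSO replicate 2 or STM2457 replicate 2 and 1 without replicate 1 of either group, and none of the 5 calls was kept in all 6 fits. How many of all genes those 6 fits called is not given here. The median log2 change of the members was -0.22, beside -0.00 for all genes, and the groups did not overlap for 18 members, against 35.3% of all genes.

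In LN229, STM2457 lowered constitutive members of every part of the particle and raised PSMB5. Of 41 members 24 fell and 1 rose, where 49.7% of the 17107 genes tested passed, 23.6% falling and 26.2% rising. The median log2 change of the members was -0.29, beside -0.00 for all genes, and the groups did not overlap for 31 members, against 60.6% of all genes. Among the groups, 5 of 7 alpha ring, 5 of 7 constitutive beta ring, 4 of 6 ATPase, 2 of 3 other base, 5 of 8 lid, 1 of 3 base chaperone and 2 of 4 activator genes fell, and 0 of 3 inducible genes did.

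The largest fall was that of PSMC3 (chr11:47418769-47426473, minus strand), an ATPase of the base. It had 3111, 3263 and 3605 normalized counts in DMSO and 2229, 1952 and 1944 after STM2457. The gap between the groups was wider than the spread within either. The log2 change was -0.70 (SE 0.09, limma adjusted p = 0.000498). PSMC4, another ATPase of the base, had 2163, 2116 and 2185 and then 1435, 1724 and 1487 (log2 change -0.48, SE 0.09, limma adjusted p = 0.00277).

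PSMB4 (chr1:151399534-151401944, plus strand), a non-catalytic beta ring subunit, had 7646, 8404 and 8228 normalized counts in DMSO and 5705, 6624 and 5106 after STM2457 (log2 change -0.48, SE 0.11, limma adjusted p = 0.00612). PSMD3, a scaffold subunit of the lid, had 3008, 3109 and 3185 and then 2159, 2640 and 2169 (log2 change -0.42, SE 0.10, limma adjusted p = 0.00701). Treated replicate 2 was the highest treated library of PSMB4, PSMC4 and PSMD3, and still below the controls. PSME2 had 1689, 1765 and 1613 and then 1151, 1479 and 908, the widest treated spread of the 5 relative to its mean (log2 change -0.55, SE 0.16, limma adjusted p = 0.0212).

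PSMB5 (chr14:23016543-23035230, minus strand) rose in LN229. It had 2319, 2477 and 2465 normalized counts in DMSO and 3231, 3410 and 3098 after STM2457, with no overlap. The log2 change was 0.42 (SE 0.08, limma adjusted p = 0.00232). Its catalytic partner PSMB6 fell, with 1355, 1394 and 1434 in DMSO and 1200, 1234 and 1123 after STM2457 (log2 change -0.24, SE 0.08, limma adjusted p = 0.0359), and PSMB7 did not pass (log2 change -0.18).

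No inducible gene passed in LN229, and a difference between inducible and constitutive genes was not tested. PSMB8 had 1236, 1238 and 1139 normalized counts in DMSO and 1521, 2132 and 1283 after STM2457. All treated libraries lay above the controls, with replicate 2 far above the others, and the gene did not pass (log2 change 0.42, SE 0.17, limma adjusted p = 0.067). PSMB9 had 638, 753 and 677 and then 522, 901 and 461, so that replicate 2 was above every control and the other 2 below (log2 change -0.19). Without treated replicate 2 alone, PSMB9 fell like many constitutive genes (log2 change -0.49, limma adjusted p = 0.00725). PSMB10 had a log2 change of 0.10, PSME1 of 0.03, PSME3 of -0.05, and PSME4 fell by 0.36 on the log2 scale (limma adjusted p = 0.00923).

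Leaving out single LN229 libraries gave 16 to 33 calls, with 16 without DMSO replicate 3. PSMB5 and 13 of the 24 falls passed in all 6 such fits. With replicate 2 of both groups left out, an alternative added after seeing the data, 31 members were called, and PSMB9 then fell (log2 change -0.42, limma adjusted p = 0.022). The share of all genes called in these refits is not given here, so the member counts are not set against it.

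Markers of cell type changed with STM2457 in LN229 as well. Of 6 glioma markers 4 fell and 1 rose: S100B fell by 1.99 and VIM fell by 0.80 on the log2 scale, NES and SOX2 fell, and CD44 rose by 1.24. CD68 rose by 2.34, and KRT8, an epithelial keratin, and PECAM1 and CDH5 of endothelium rose too. PECAM1 and CDH5 stayed low, at no more than 72.5 and 20.8 normalized counts in any LN229 library. In LN229-R CD68 rose by 2.53, CD44 rose by 1.53 and S100B fell by 1.94, and no other marker passed. In the U87 lines NES fell in U87 MG and no marker passed in U87-R after STM2457. NES and KRT8 were higher in U87-R than in U87 MG, by 1.15 and 1.06, and S100B was lower, at -0.63, in the libraries labelled LN229-R than in those labelled LN229. The part of these markers in the proteasome changes was not tested.

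LN229-R showed the same direction in the constitutive genes and a rise of PSMB8. Of 41 members 17 fell and 2 rose, where 38.6% of the 17063 genes tested passed, 17.1% falling and 21.5% rising. The median log2 change was -0.27, beside -0.02 for all genes, and the groups did not overlap for 27 members, against 53.1% of all genes. All 7 constitutive beta ring genes passed, 6 of them falling and PSMB5 rising. Of the other groups 3 of 7 alpha ring, 4 of 6 ATPase, 0 of 3 other base, 2 of 8 lid, 1 of 3 base chaperone and 1 of 4 activator genes fell.

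PSMB4 had 10163, 10555 and 10718 normalized counts in DMSO and 6010, 5354 and 6338 after STM2457. No treated library came near a control. Its log2 change was -0.83 (SE 0.11, limma adjusted p = 0.00103). PSMD3 had 3434, 3425 and 3537 and then 2676, 2243 and 2566 (log2 change -0.48, SE 0.10, limma adjusted p = 0.00901), and PSMB4 and PSMD3 were the 2 falls that passed without any single library.

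PSMC3 had 3728, 2936 and 4083 normalized counts in DMSO and 2652, 1708 and 2345 after STM2457. Replicate 2 was the lowest library of both groups, and the groups did not overlap (log2 change -0.69, SE 0.19, limma adjusted p = 0.0221). PSMB2 had 3994, 3942 and 4068 and then 3103, 2568 and 3180 (log2 change -0.45, SE 0.11, limma adjusted p = 0.0163). PSME4 had 2735, 3049 and 2542 and then 2041, 2233 and 1885 (log2 change -0.43, SE 0.11, limma adjusted p = 0.0195).

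PSMB8 (chr6:32840717-32844703, minus strand) had 992, 1193 and 1001 normalized counts in LN229-R in DMSO and 1595, 2884 and 1596 after STM2457. The groups did not overlap, and treated replicate 2 stood far above the other treated libraries. The log2 change was 0.88 (SE 0.23, limma adjusted p = 0.0185). Without that library it was 0.59 (limma adjusted p = 0.00851), and the call was lost without DMSO replicate 1 or DMSO replicate 3. PSMB9 had 479, 1050 and 513 after STM2457 against 539, 736 and 536 in DMSO, so that replicate 2 was again the highest of both groups, and it did not pass (log2 change 0.09). The gene models of PSMB8 and PSMB9 overlap on opposite strands in the GENCODE annotation, and whether the counting used strand is not given in the sources used here, so their reads may be split between them.

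PSMB5 rose in LN229-R with little margin. It had 2840, 3120 and 2824 normalized counts in DMSO and 3709, 3332 and 3770 after STM2457, with no overlap (log2 change 0.30, SE 0.10, limma adjusted p = 0.0499). The call was lost with a pseudocount of 0.5 (limma adjusted p = 0.0504), without the filter on low values (limma adjusted p = 0.0662) and with upper quartiles made equal (limma adjusted p = 0.0979). PSMB6 had 1752, 1804 and 1885 and then 1381, 1308 and 1453, and fell (log2 change -0.39, SE 0.10, limma adjusted p = 0.0152). PSMB7 had 2589, 2574 and 2659 and then 2164, 2122 and 2217, and fell (log2 change -0.27, SE 0.09, limma adjusted p = 0.0473), a call that no fit without 1 library kept. PSMB10, PSME1, PSME2 and PSME3 missed the threshold, at log2 changes of 0.05, 0.29, -0.41 and -0.02. Like-numbered libraries deviated together here too, and with the replicate number as a block PSME1 rose (limma adjusted p = 0.0358) and PSME2 fell (limma adjusted p = 0.0167). The pairing was loose for DMSO replicate 3. Its deviations correlated more with those of STM2457 replicate 1 (0.169) than with those of STM2457 replicate 3 (0.102).

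Single libraries weighed on the LN229-R count too. It was 7 without DMSO replicate 1, 3 without DMSO replicate 3, 10 without STM2457 replicate 1 and 9 without STM2457 replicate 3. With replicate 2 of both groups left out, 29 members were called, 26 falling and 3 rising. Shares of all genes called in the same refits are not given here either.

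**Figure D1:**
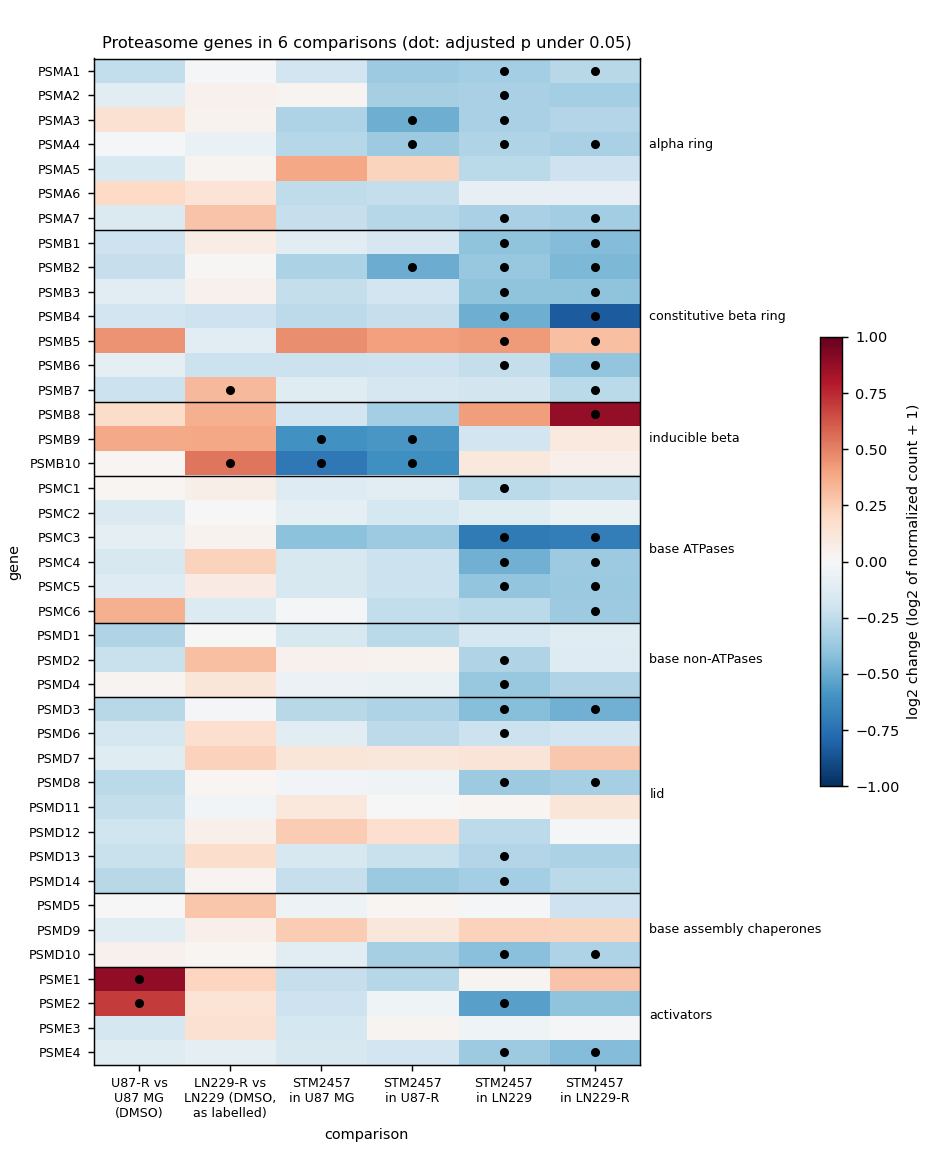
Log2 change of normalized count + 1 for each of the 41 tested members (vertical, grouped by role) in each of the 6 comparisons (horizontal), with a dot where the limma adjusted p was under 0.05. The dots gather in the 2 LN229 drug columns, 25 and 19, while PSMB5 is red in all 4 drug columns and PSMB9 and PSMB10 are blue in the 2 U87 drug columns.

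**Figure D2:**
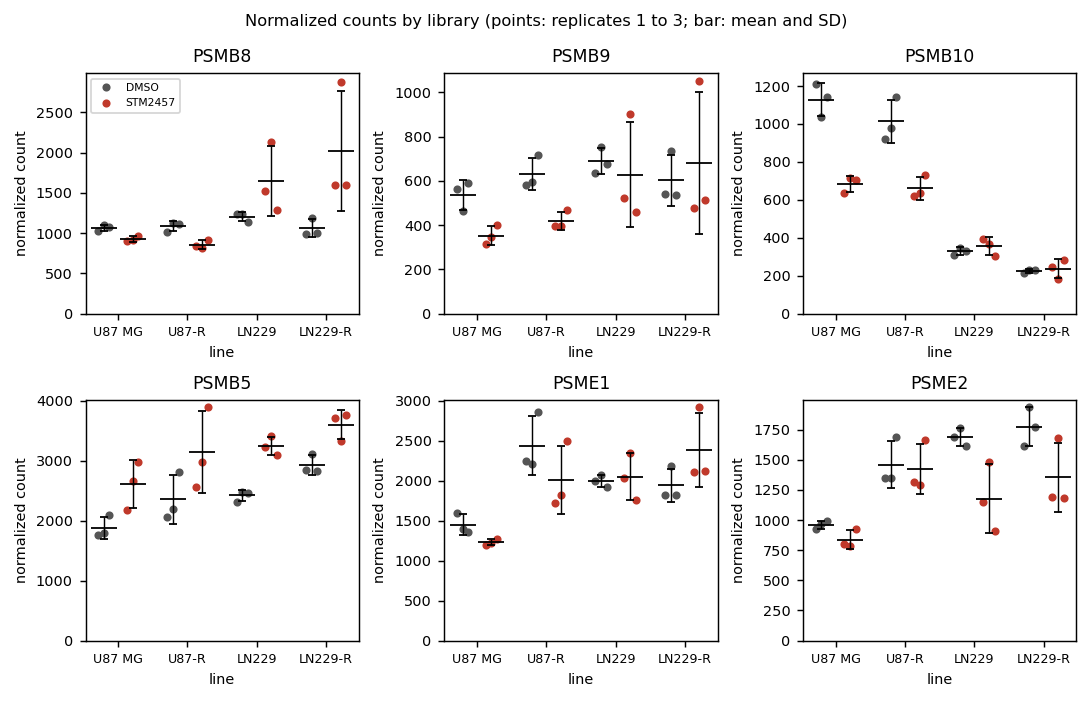
Normalized counts (vertical) of the inducible genes PSMB8, PSMB9 and PSMB10, of PSMB5 and of the activator genes PSME1 and PSME2 in the drug tables, by line (horizontal), with 3 libraries per group as points and the mean and SD as bars. Treated replicate 2 of LN229-R, at 2884 for PSMB8, stands above the other treated libraries at 1595 and 1596.

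The members' summed share of a library was lower after STM2457 in every library of 3 of the 4 lines. In LN229 it was 0.458% to 0.477% of normalized counts in DMSO and 0.358% to 0.430% after STM2457. In LN229-R it was 0.408% to 0.461% and then 0.363% to 0.373%, and in U87-R 0.432% to 0.443% and then 0.396% to 0.431%. These 3 lines had no overlap between the groups, although an exact permutation test of 3 against 3 libraries cannot go below 0.10. In U87 MG the share was 0.463% to 0.504% in DMSO and 0.411% to 0.538% after STM2457, with the treated libraries on both sides of the controls. Ribosomal protein genes went the same way between groups in LN229, LN229-R and U87-R, but not always library by library. Their share was also lower without overlap in the same 3 lines, from 3.23% to 3.68% in DMSO and from 2.26% to 3.15% after STM2457 in LN229, from 2.57% to 4.24% and from 2.01% to 2.39% in LN229-R, and from 3.19% to 3.28% and from 3.02% to 3.10% in U87-R. In U87 MG it overlapped between the groups. Within a group the member and ribosomal shares could go opposite ways. Treated LN229 replicate 2 had the highest treated member share, 0.430%, and the lowest ribosomal share, 2.26%. DMSO replicate 2 of LN229-R had the lowest member share of its group, 0.408%, and the highest ribosomal share, 4.24%. The part of ribosomal protein genes in the result was not tested.

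**Figure D3:**
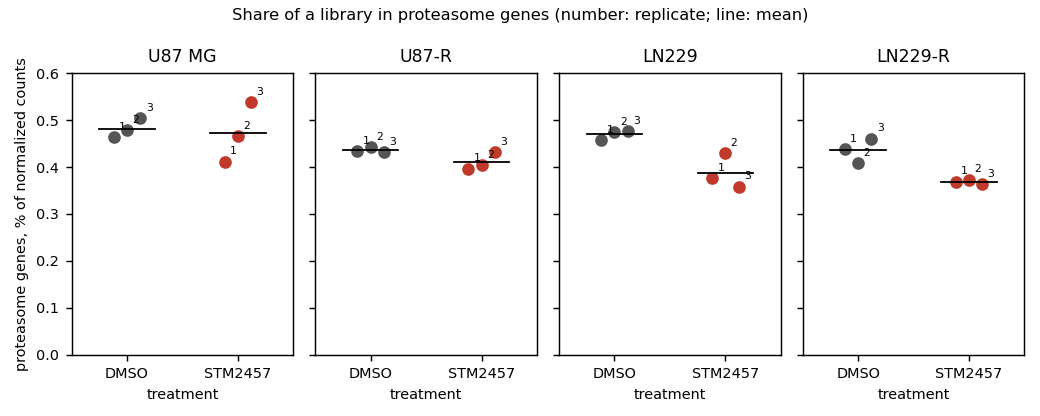
Summed normalized counts of the proteasome genes as a percent of each library (vertical) in DMSO and after STM2457 (horizontal), with 3 libraries per group as numbered points and the mean as a line. The treated LN229-R libraries sit between 0.363% and 0.373%, below all 3 controls, while the treated U87 MG libraries spread from 0.411% to 0.538%.

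The 4 drug comparisons share no library, and their directions can be set side by side. The log2 change was below 0 in all 4 lines for 27 of 41 members (65.9%), against 26.6% of the 13363 genes tested in all 4. With totals made equal the sign turned in a U87 line for 3 of the 27, PSMC6, PSMD8 and PSME2. It was above 0 in all 4 for PSMB5, PSMD7, PSMD9 and PSMD11 (9.76%), against 26.3% of all genes. PSMD7 is a lid subunit that partners the deubiquitinase, PSMD9 is an assembly chaperone of the base and PSMD11 is a lid scaffold. The sign of PSMD11 turned in U87-R with upper quartiles made equal and in LN229 with upper quartiles or totals made equal.

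In both LN229 lines 15 members fell (36.6%), against 15% of all genes, and 1 rose, PSMB5 (2.44%), against 20.3%. The 15 were PSMA1, PSMA4 and PSMA7 of the alpha ring, PSMB1, PSMB2, PSMB3, PSMB4 and PSMB6 of the beta ring, PSMC3, PSMC4 and PSMC5 of the base, PSMD3 and PSMD8 of the lid, the chaperone PSMD10 and the activator PSME4. In both U87 lines PSMB9 and PSMB10 fell (4.88%), against 3.56% of all genes. Over the 41 members, the log2 changes of LN229 and LN229-R had a Pearson r of 0.90, and those of U87 MG and U87-R one of 0.88. Between a U87 and an LN229 line r was 0.23 to 0.31. These are descriptions over genes, which are not independent, and the lines of a family share medium and library kit.

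The difference between drug effects was tested in joint fits of 2 tables. U87-R and U87 MG differed in 0 of 41 members (limma, 0% of 15680 genes passed). No member was under an unadjusted p of 0.05, beside 586 of all genes tested. LN229-R and LN229 differed in 0 of 41 (limma, 0.00606% of 16511 genes passed). Under an unadjusted p of 0.05 was 1 member, PSMB4 (difference -0.35, SE 0.15), beside 651 of all genes tested. For PSMB8 the effect in LN229-R minus that in LN229 was 0.46 (SE 0.31), so a difference between the 2 lines was not shown, which does not mean that they act alike.

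Between backgrounds, LN229 and U87 MG differed in 2 members, where 18.8% of the 13887 genes tested passed. For PSMB10 the effect was 0.10 in LN229 and -0.72 in U87 MG, a difference of 0.82 (SE 0.17, limma adjusted p = 0.00552). For PSMA5 it was -0.27 and 0.38, a difference of -0.66 (SE 0.17, limma adjusted p = 0.0157). PSMB8 came close to the threshold, at 0.61 (SE 0.20, limma adjusted p = 0.0519).

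LN229-R and U87-R also differed in 2 members, where 14.4% of the 13759 genes tested passed. For PSMB8 the effect was 0.88 in LN229-R and -0.34 in U87-R, a difference of 1.22 (SE 0.27, limma adjusted p = 0.00939). For PSMB4 it was -0.83 and -0.23, a difference of -0.60 (SE 0.14, limma adjusted p = 0.012). With the LN229 names exchanged, the PSMB4 difference was -0.25 (limma adjusted p = 0.245). Like-numbered libraries deviated together in both of these tables, and with the replicate number as a block 6 members passed, where 27.3% of all genes did. The difference was then above 0 for PSMB8 (1.22), PSMB9 (0.68, limma adjusted p = 0.0299), PSMB10 (0.66, limma adjusted p = 0.0343) and PSME1 (0.57, limma adjusted p = 0.00561), and below 0 for PSMB4 (-0.60) and PSMA5 (-0.43, limma adjusted p = 0.0245). PSMB5 differed little between backgrounds, by -0.04 (SE 0.16) between LN229 and U87 MG and by -0.11 (SE 0.22) between LN229-R and U87-R, and neither passed.

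**Figure D4:**
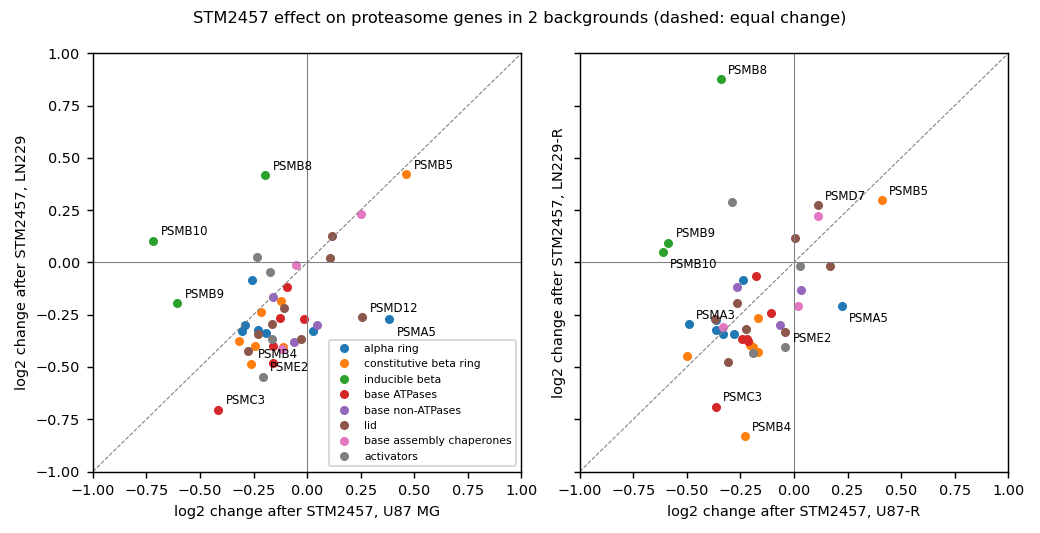
Log2 change after STM2457 in a U87 line (horizontal) against that in the LN229 line of the same kind (vertical), parental lines on the left and resistant lines on the right, with 1 point per member coloured by role and a dashed line of equal change. PSMB8 and PSMB10 lie above the line and PSMA5 and PSMB4 below it, while PSMB5 lies near it in both panels.

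Within a library, the inducible genes can be set against the constitutive genes they replace. The log2 ratio of PSMB8 to PSMB5 after STM2457 minus that in DMSO was -0.66 in U87 MG, -0.75 in U87-R and 0.58 in LN229-R, with no overlap in any of them. In LN229-R the treated log2 ratios were -1.24, -1.22 and, far above these in replicate 2, -0.21, against -1.52 to -1.39 in DMSO. In LN229 the difference was -0.00 and the groups overlapped, while both genes had a log2 change of 0.42 there. The log2 ratio of PSMB10 to PSMB7 differed by -0.60 in U87 MG and -0.44 in U87-R, without overlap, and by 0.29 in LN229 and 0.32 in LN229-R, where only the LN229 groups were apart. The log2 ratio of PSMB9 to PSMB6 differed by -0.39 in U87 MG, by 0.04 in LN229 and by 0.49 in LN229-R, each with overlap, and by -0.38 in U87-R, without overlap.

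A class I and interferon list of 8 genes, among them IRF1, NLRC5, TAP1, B2M and ERAP1, held rises in the LN229 lines and falls in the U87 lines. After STM2457 5 of its 8 genes rose in LN229 and 6 of 8 in LN229-R, where 26.2% and 21.5% of all genes rose, and none of the 8 fell. NLRC5, the activator of class I transcription, had 181 ± 39.9 normalized counts in LN229 in DMSO and 530 ± 208 after STM2457 (SD, n = 3), and rose by 2.18 on the log2 scale in LN229-R. TAP1, a peptide transporter subunit, rose by 0.98 and 1.10. In U87 MG 2 of 8 fell, against 5.72% of all genes: IRF1 by 0.82 and B2M, the class I light chain, by 0.42. In U87-R 3 of 8 fell, against 6.2% of all genes: B2M by 0.45, ERAP1, a peptide-trimming enzyme, by 0.45 and IRF1 by 0.41. No difference between backgrounds was tested for these genes. ERAP1 was also higher in U87-R than in U87 MG, by 0.59, and in the libraries labelled LN229-R than in those labelled LN229, by 0.57. The second sign turns with the LN229 names exchanged.

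The library that stood apart for PSMB8 stood apart for this list as well. In LN229-R the 8 genes summed to 36007, 50128 and 36335 normalized counts in DMSO and to 60040, 136850 and 63932 after STM2457. In LN229 they summed to 42810, 39807 and 37713 and then to 57912, 81786 and 47695. Replicate 2 was the highest treated library in both lines, as for PSMB8 and PSMB9. Without these libraries the log2 change of PSMB8 was 0.59 in LN229-R, against 0.88 with it, and 0.21 in LN229 (limma adjusted p = 0.1), against 0.42 with it.

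The list of factors that control proteasome genes (NFE2L1, NFE2L2, DDI2, NGLY1, VCP, MAFF, MAFG and MAFK) held 5 genes that rose in LN229 and the same 5 in LN229-R, where 26.2% and 21.5% of all genes rose, and 20.3% of the 13363 genes tested in all 4 lines rose in both. MAFK, a small Maf partner of NFE2L1 and NFE2L2, rose by 1.78 in both, MAFF by 1.02 in both, and NFE2L2, the oxidative stress factor, by 0.73 and 0.88. MAFG and DDI2, the protease that activates NFE2L1, rose too, while NFE2L1 did not pass in either LN229 line. In U87 MG and U87-R NFE2L1 fell by 0.47 and 0.55 and MAFK rose by 0.53 and 0.44.

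Of 6 assembly factors 2 fell in each LN229 line, and of 8 partners of the particle 3 fell in each, where 23.6% of all genes fell in LN229 and 17.1% in LN229-R. Of the assembly factors, PSMG2 and PAAF1 fell in both LN229 lines, PSMG2 by 0.47 and 0.54. POMP, which matures the core, fell in U87-R by 0.66. Of the partners, UCHL5, a deubiquitinase of the base, fell by 0.72 and 0.84 in the LN229 lines, and its receptor ADRM1 and the inhibitor PSMF1 fell in both. SEM1 rose in LN229, by 0.20, and ECPAS, an adaptor of the particle, fell in U87-R, by 0.67.

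Of 8 shuttle and import factors, UBQLN2, a shuttle that carries ubiquitinated proteins, rose in all 4 drug comparisons, by 0.56 in U87 MG, 0.52 in U87-R, 0.72 in LN229 and 0.81 in LN229-R. Its relative UBQLN4 fell by 0.62 and 0.63 in the LN229 lines. In LN229 RAD23B, AKIRIN2, which imports proteasomes into the nucleus, and UBQLN1 fell as well. Of 6 ubiquitin and activating enzyme genes, UBA1, the main activating enzyme, fell by 0.34 and 0.43 in the LN229 lines, and UBB and UBA6 fell in LN229. In the resistance comparisons, beside ERAP1, PSMF1 and MAFG rose in the libraries labelled LN229-R and no other gene of these 6 lists passed.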

How the data were processed

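PolyA RNA-seq of 24 libraries was analysed from 6 deposited tables, 1 per comparison. The authors trimmed with Trimmomatic 0.39, used STAR 2.7.11a, Salmon 1.4.0 and DESeq2 and built on GRCh38, per the submitters' processing notes, which give no roles or order. The deposited values are a signal of normalized counts, scaled within each table by the authors. They are not whole reads, so no count test was run. Values were tested as log2(value + 1) with limma 3.58.1 in R 4.3.3, with a variance trend, on genes with a mean of at least 10, with Benjamini-Hochberg adjustment over all genes tested and a threshold of 0.05. Differences of drug effects came from joint fits of 2 tables. The fit was tested on simulated data. Like-numbered libraries were taken as paired where all 3 correlations of their deviations exceeded 0.1, a hint from the data and not from the labels: LN229-R against LN229 (0.134, 0.204 and 0.114) and STM2457 in U87-R (0.174, 0.114 and 0.298) and in LN229-R (0.175, 0.321 and 0.102). Alternatives were other pseudocounts, filters and scalings, the replicate block, leaving out libraries and exchanging the LN229 names. Named in each comparison were all members that passed, or the 5 largest in each direction where over 10 did, the catalytic and activator genes and passing genes of 6 pathway lists. The members and lists were chosen with earlier results of these data known. Some genes of these lists are not reported here.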

Additional observations from a re-analysis of the deposited data

Results flagged for a closer look

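For 4 members the effect of STM2457 differed between the U87 and LN229 backgrounds by a test of the difference itself (limma, joint fit of 2 tables, Benjamini-Hochberg adjusted over all genes tested). There were 2 such members of 41 between LN229 and U87 MG, where 18.8% of all genes passed, and 2 between LN229-R and U87-R, where 14.4% did. The effect on PSMB10 in LN229 minus that in U87 MG was 0.82 on the log2 scale (adjusted p = 0.00552), with all 3 treated U87 MG libraries below all controls and the LN229 groups overlapping. The effect on PSMA5 in LN229 minus that in U87 MG was -0.66 (adjusted p = 0.0157), with the treated libraries above all controls in U87 MG and below them in LN229. The effect on PSMB8 in LN229-R minus that in U87-R was 1.22 (adjusted p = 0.00939), and the groups of both lines lay apart in opposite directions. The effect on PSMB4 in LN229-R minus that in U87-R was -0.60 (adjusted p = 0.012), and with the LN229 names exchanged it was -0.25 (limma adjusted p = 0.245). Medium, serum and library kit differ between the backgrounds and cannot be told apart from them.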

How the results depend on the processing

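Read depth behind the values is unknown, and 3 libraries per group limit what can be called. Counts of called members under an alternative stand in this section without the share of all genes called by it. That share can change as well. Leaving out 1 library gave 1 to 2 called members in U87-R against U87 MG, 0 to 7 in LN229-R against LN229, and, after STM2457, 1 to 4 in U87 MG (1 without DMSO replicate 1 or STM2457 replicate 2, 4 without STM2457 replicate 3), 0 to 7 in U87-R, 16 to 33 in LN229 and 3 to 19 in LN229-R. For differences of the drug effect it gave 2 to 6 between LN229 and U87 MG (6 without U87 MG STM2457 replicate 1, 4 without LN229 STM2457 replicate 2), 2 to 4 between LN229-R and U87-R (4 without U87-R STM2457 replicate 3), and 0 between the lines of 1 family. With totals made equal, 4 members were called in LN229-R against LN229, 4 after STM2457 in U87 MG and 5 in LN229 minus U87 MG. That scaling also raised the higher share of all calls from 60.5% to 71.6% in LN229-R against LN229 and from 57.9% to 68.6% in U87 MG after STM2457. With upper quartiles made equal, 9 were called in U87-R after STM2457. The scalings shifted the median of all genes by -0.0625 to 0.0596 (log2), and the members whose sign turned with the scaling had not passed.

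The replicate block gave 6 called members in LN229-R against LN229, 19 in U87-R after STM2457, 10 in U87 MG after STM2457, 5 in LN229 minus U87 MG and 6 in LN229-R minus U87-R. In U87 MG after STM2457, U87-R against U87 MG and LN229 after STM2457 like-numbered libraries did not all deviate together, so the pairing there is only a shared number. PSMB5 passed under the block in U87-R against U87 MG (limma adjusted p = 0.0213). Replicate 2 of both groups left out, chosen after seeing the data, gave 4 in LN229-R against LN229 and 29 in LN229-R after STM2457. With the LN229 names exchanged, PSMB10 was at -0.54 and PSMB7 at -0.33 in the resistance comparison, and 4 members differed in LN229 minus U87 MG. The cause of these shifts was not tested. The other alternatives (pseudocounts, no filter, a mean of at least 50) left every count of called members within 1.5 times.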
